A study of Mus musculus with 2 samples.

Results

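The 4 tissue inhibitors of metalloproteinases (Timp1, Timp2, Timp3 and Timp4) and 5 matrix metalloproteinases (Mmp2, Mmp3, Mmp9, Mmp14 and Mmp23) were followed in cells of the neonatal mouse heart. These 9 genes, named one by one, were taken from the 31053 genes of the deposited count tables by their symbols, whatever their level. The study profiled live cells of hearts at postnatal day 1 (P1) and postnatal day 7 (P7) by droplet single cell RNA-seq, which reads the 3′ end of mRNAs and counts molecules by their unique molecular identifiers (UMIs). Each age was 1 library, prepared from 3 hearts of a single litter that were pooled and digested with collagenase, for 20 min at P1 and 45 min at P7. The hearts were described as intact, with no treatment, and strain and genotype were not given for them in the labels. As each age had only 1 library, the ages could not be compared by a test. Every interval given is a 95% interval that covers counting error only, and age cannot be told apart from litter, digestion time or library.

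Matrix metalloproteinases are zinc-dependent enzymes that cleave collagens, elastin and other components of the extracellular matrix, and they are made as inactive precursors. TIMPs bind to the active site of these enzymes and block it. Mmp2 and Mmp9 encode gelatinases, Mmp3 encodes stromelysin 1, Mmp14 encodes the membrane-anchored collagenase MT1-MMP, and Mmp23 encodes a membrane-anchored member that lacks the usual haemopexin domain. The TIMP2 protein has a role on both sides, since it inhibits metalloproteinases and also forms the bridge by which MT1-MMP activates the precursor of MMP2. TIMP3 is held in the matrix, and its inhibition extends to ADAM and ADAMTS proteases. In the heart these enzymes and inhibitors are known for their part in remodelling of the matrix during growth and after injury.

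The genes lie on separate chromosomes, and 3 of the inhibitors share an arrangement with the synapsin genes. On GRCm38, the build of the deposited files, GENCODE M21 placed Timp1 at chrX:20870166-20874735 on the plus strand, within Syn1 on the opposite strand. It placed Timp3 at chr10:86300372-86349506 on the plus strand within Syn3, and Timp4 at chr6:115241892-115252205 on the minus strand within Syn2, again with host and inhibitor on opposite strands. Exons of Timp1 and Syn1 did not overlap, whereas 1 exon overlap was annotated for Timp3 and 2 for Timp4. Timp2 was at chr11:118301069-118355740 on the minus strand. The enzymes were at chr8:92827291-92853420 on the plus strand (Mmp2), chr9:7445822-7455975 on the plus strand (Mmp3), chr2:164940780-164955850 on the plus strand (Mmp9), chr14:54431612-54445364 on the plus strand (Mmp14) and chr4:155650655-155653384 on the minus strand (Mmp23).

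Promoter sequences from RefSeq (GRCm38.p6) were matched for 7 of the 9 genes, without Mmp2 and Mmp9. The 250 bases before the RefSeq start are shown for Timp1, Timp2, Timp4 and Mmp3, as examples of an inducible inhibitor, a broadly detected inhibitor, the endothelial inhibitor and a rarely detected enzyme. The RefSeq start used for Timp2 lies inside the Timp2 gene as GENCODE placed it, so the Timp2 stretch falls within that gene. Each is written 5′ to 3′ on the strand of its gene, from chrX:20869916-20870165 (Timp1), chr11:118355412-118355661 (Timp2), chr6:115252206-115252455 (Timp4) and chr9:7445572-7445821 (Mmp3). Capitals mark exact matches, on either strand, to the AP-1 motif TGAGTCA, its variant TGAGTAA, the GC box GGGCGG or the TATA box TATAAA.
Timp1: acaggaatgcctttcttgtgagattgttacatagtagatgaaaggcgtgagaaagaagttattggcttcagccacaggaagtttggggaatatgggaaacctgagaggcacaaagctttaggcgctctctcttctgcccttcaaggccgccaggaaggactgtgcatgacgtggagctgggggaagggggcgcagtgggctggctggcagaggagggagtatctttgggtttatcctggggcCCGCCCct
Timp2: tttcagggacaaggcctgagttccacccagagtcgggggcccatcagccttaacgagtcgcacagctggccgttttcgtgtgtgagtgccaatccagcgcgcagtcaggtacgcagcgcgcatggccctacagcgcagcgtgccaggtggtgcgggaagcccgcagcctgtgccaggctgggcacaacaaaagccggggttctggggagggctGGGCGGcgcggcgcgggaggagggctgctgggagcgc
Timp4: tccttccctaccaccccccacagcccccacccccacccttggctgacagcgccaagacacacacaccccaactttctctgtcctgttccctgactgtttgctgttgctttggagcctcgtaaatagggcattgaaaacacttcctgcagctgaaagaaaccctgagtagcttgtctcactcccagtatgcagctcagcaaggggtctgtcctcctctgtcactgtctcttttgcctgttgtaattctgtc
Mmp3: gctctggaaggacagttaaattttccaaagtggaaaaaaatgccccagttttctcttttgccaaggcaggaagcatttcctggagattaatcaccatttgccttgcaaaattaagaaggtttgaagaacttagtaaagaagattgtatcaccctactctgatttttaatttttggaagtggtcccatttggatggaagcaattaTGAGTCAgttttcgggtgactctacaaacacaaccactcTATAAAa

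The search window ran from 250 bases before to 50 bases after the start, 300 bases in all. The Mmp3 window held the AP-1 motif, beginning 46 bases before the start, and a TATA box beginning 7 bases before it. The Timp1 and Timp2 windows each held a GC box, beginning 8 and 37 bases before the start. Timp1 also held the AP-1 variant, after the start and outside the stretch shown. Of the windows not shown, those of Timp3, Mmp14 and Mmp23 held GC boxes and none of the other motifs. None of the 4 motifs was found in the Timp4 window. Of 32851 promoter windows of this length, 5.20% held the AP-1 motif, 2.68% its variant, 35.7% the GC box and 13.6% the TATA box. The GC content was 40.0% for Mmp3, 53.3% for Timp4, 55.0% for Timp1 and 68.7% for Timp2, beside a median of 52.7% over all windows. These matches are descriptions of the letters and not binding sites.

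The P1 file held 7836 barcodes and 63585504 UMIs and the P7 file 9077 barcodes and 98346195 UMIs. After removal of barcodes outside 200 to 8000 genes or over 20% mitochondrial UMIs, 4991 cells remained at P1 and 8511 at P7, with a median of 10875 and 10104 UMIs per cell. Cells were assigned to 6 classes by a gate gene, with at least 2 UMIs of that gene and more of it than of the other 5 gate genes together. The gates were Cdh5 for endothelium (1663 cells at P1, 3330 at P7), Pdgfra for fibroblasts (1002 and 2010), Myh11 for smooth muscle (163 and 433), Kcnj8 for pericytes (231 and 375), Csf1r for macrophages (202 and 215) and Upk3b for epicardium (50 and 31). These classes took 66.3% of the cells at P1 and 75.1% at P7. Further markers of each class were detected in it at both ages, and all of them were highest in their own class except in pericytes, where 4 of 6 were highest at P1 and 5 of 6 at P7. RNA of genes typical of other cells was present in several classes. Dcn, a fibroblast proteoglycan gene, stood at 120 CPM (UMIs scaled to 1e6 UMIs of the class) in P1 macrophages and 1055 CPM in P7 macrophages. At least 10 UMIs of Col1a1, Col1a2 and Dcn together were found in 58.0% of pericytes at P1 and 37.1% at P7, in 51.5% and 30.0% of smooth muscle cells, and in 1.98% and 6.98% of macrophages. A UMI of a gene typical of lung mesenchyme (Foxf1, Hoxa5 or Tbx4), or at least 2 of Sftpc, was found in 26 of 50 epicardial cells at P1 and 5 of 31 at P7. The libraries also differed in sex, with 57336 UMIs of Xist, which is made from the inactive X chromosome, at P1 and 12 at P7. The Y-linked genes Uty, Kdm5d, Eif2s3y and Ddx3y had 2 UMIs at P1 and 18039 at P7. Timp1 is X-linked, and sex and age cannot be told apart here. The files shared 18 barcodes, of which 13 passed the filters in both.

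Most of the 9 genes were genes of the stroma, with Timp4 and Mmp9 as clear departures. Fibroblasts made up 20.1% of cells at P1 and 23.6% at P7, but they held 53.0% of Mmp2 UMIs at P1 and 63.8% at P7, and 57.7% and 61.7% of Mmp23 UMIs. Their share of Timp2 UMIs was 47.2% at P1 and 58.9% at P7. Fibroblasts also held more UMIs per cell, so a share of cells is a low baseline for these shares. Their median at P1 was 17931 UMIs with at least 2 UMIs of Col26a1 and 14981 in the rest, against 10875 over all cells. At P7 it was 18266 and 16713, against 10104. Scaled to UMIs, Mmp2 stood at 611 and 615 CPM in fibroblasts, against 339 and 353 CPM over all cells. Timp4 was an endothelial gene, with 90.8% of its UMIs in the endothelial class at P1 and 86.9% at P7. Timp1 was mostly spread between fibroblasts, with 30.5% of its UMIs at P1 and 43.0% at P7, and cells that met no gate, with 42.1% and 38.3%. In those ungated cells Timp1 stood at 87.1 and 59.3 CPM, and 5 of the 1528 ungated cells at P1 held 300 of 1077 UMIs. Timp3 had no single main source, with 43.8% of UMIs in endothelium and 24.0% in fibroblasts at P1, and 27.3% and 38.7% at P7. Mmp9 lay outside the 6 classes for the most part, with 59.1% of its UMIs at P1 and 54.7% at P7 in neutrophils, gated as cells with at least 10 UMIs of S100a8 and S100a9 and none of the gate genes.

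**Figure D1:**
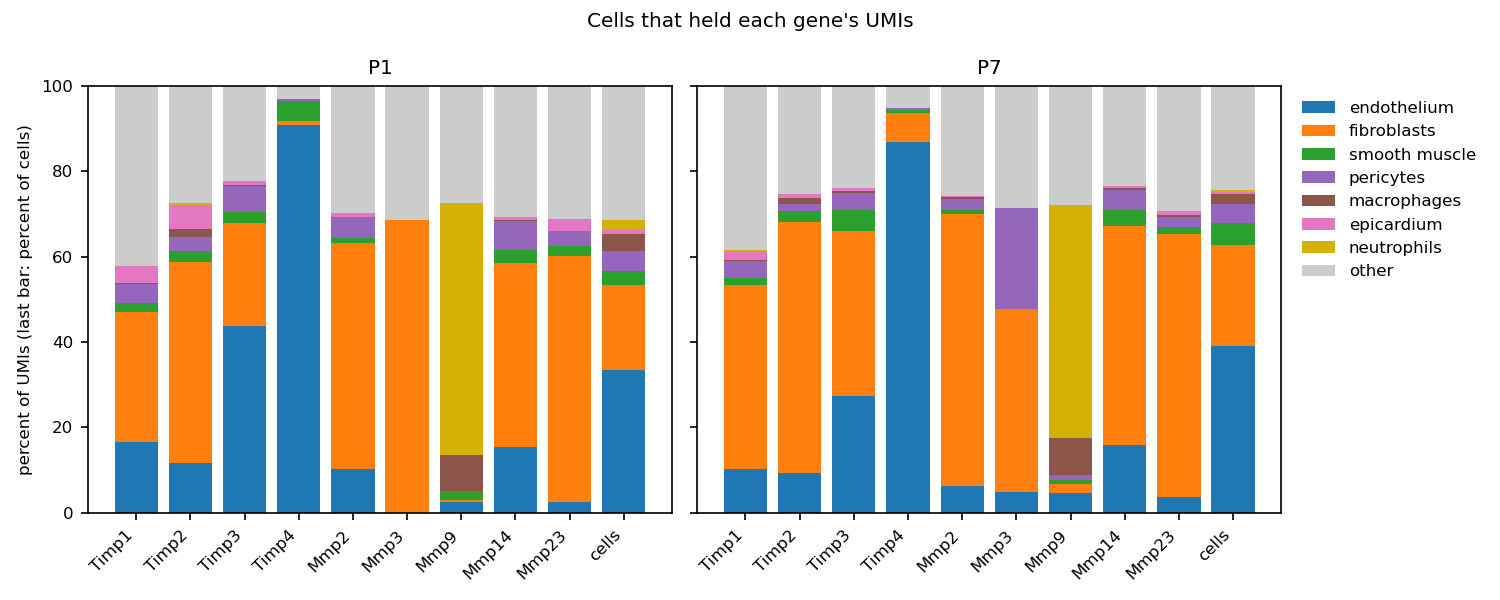
Stacked bars give the percent of each gene's UMIs found in each gated class, in neutrophils and in all other cells, at P1 (left) and P7 (right), with the percent of cells in the last bar. Classes differ in UMIs per cell, so the last bar is not a baseline for the others. Endothelium held 90.8% of Timp4 UMIs at P1 and 86.9% at P7, and the bars for Mmp9 are mostly neutrophils.

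Taken over all cells, 0 of the 9 genes were at least 2-fold higher at P7 and 3 were at least 2-fold higher at P1, where 4.07% and 8.88% of the 16552 genes with at least 20 summed UMIs passed the same limits. The 3 genes were Timp4, at 107 CPM at P1 and 30.4 CPM at P7, Mmp9, at 14.3 and 3.17 CPM, and Mmp3, at 0.593 and 0.216 CPM from only 35 and 21 UMIs. Timp2 had the highest ratio of the 9 genes, at 379 CPM at P1 and 545 CPM at P7, with a log2 ratio of P7 over P1 of 0.52 (0.50 to 0.55). Mmp23 was level over all cells, at 153 CPM at both ages. Mmp2 was slightly higher at P7, at 339 and 353 CPM. Timp1, at 43.3 and 27.2 CPM, Timp3, at 243 and 220 CPM, and Mmp14, at 328 and 275 CPM, were lower at P7 by less than 2-fold. Whole-library values move with the mix of cells, so each gene was followed within classes. Because the 3′ counts were not set against transcript length, levels are compared between classes and ages for one gene at a time, and not between genes.

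Of the 54 pairs of gene and class, 43 had at least 20 summed UMIs. In endothelium, Timp1, Timp4 and Mmp9 were at least 2-fold higher at P1, against 5.23% of all genes, and none was higher at P7 by this limit, against 4.67%. In fibroblasts only Mmp3 passed the limit towards P1 (6.38% of all genes) and none towards P7 (4.55%). In smooth muscle, Timp1, Timp4 and Mmp9 passed towards P1 (4.35%) and none towards P7 (3.21%). In pericytes only Timp4 passed towards P1 (3.17%) and none towards P7 (2.75%). In macrophages, Timp3, Mmp2 and Mmp23 passed towards P7 (8.25%) and Mmp9 towards P1 (2.78%). In epicardium, Timp3 passed towards P7 (4.93%) and Mmp2 towards P1 (5.03%). The median log2 ratio of the members with enough UMIs was -0.65 in endothelium, -0.11 in fibroblasts, -0.83 in smooth muscle, -0.41 in pericytes, 1.25 in macrophages and -0.25 in epicardium. The median over all genes was between -0.03 and 0.10 in the same classes. With 6 to 8 members per class and 1 library per age, these counts and medians describe the members and are not tests.

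**Figure D2:**
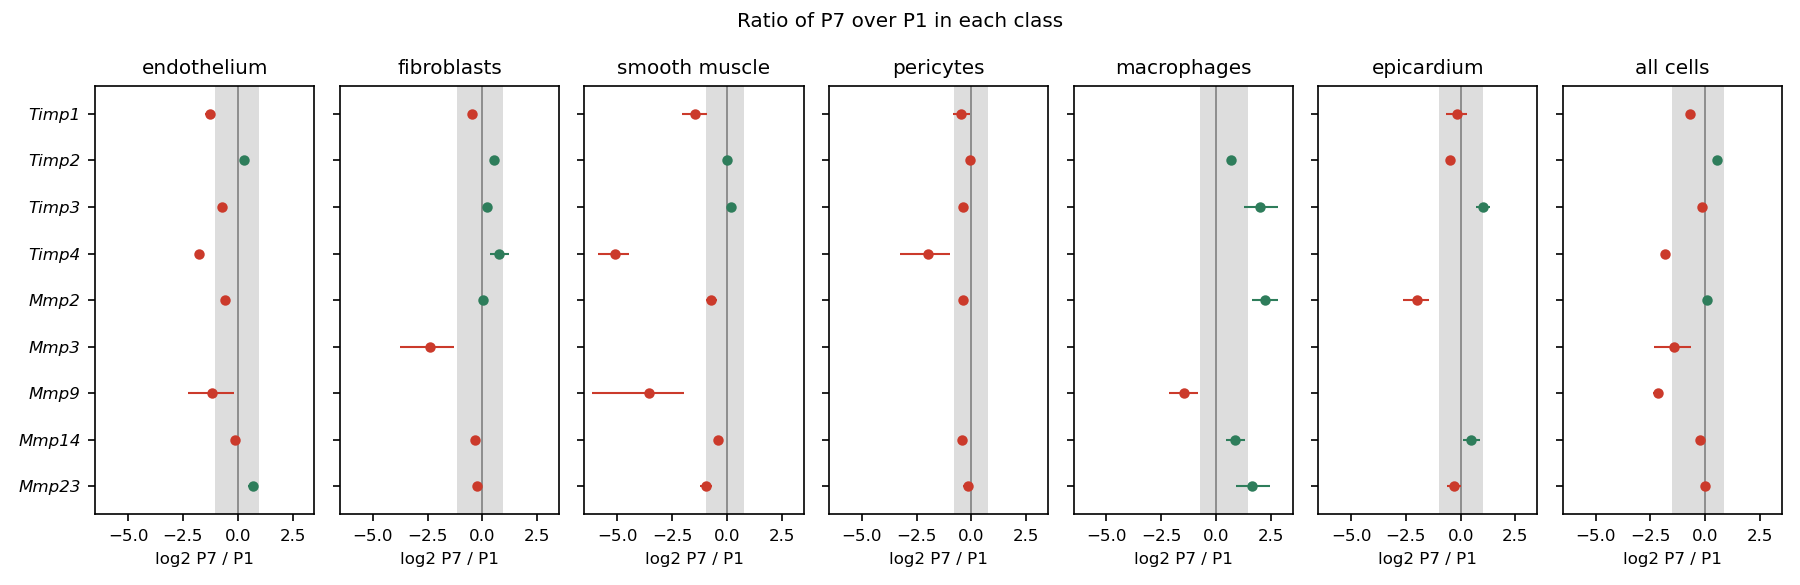
Points give the log2 ratio of P7 over P1 of each gene in each class and in all cells, with 95% counting intervals as bars, red where P1 was higher and green where P7 was higher. The grey band spans the 5th to 95th percentile of all genes with at least 20 summed UMIs. Timp4 lies left of the band in endothelium, smooth muscle and pericytes, and Timp3, Mmp2 and Mmp23 lie right of it in macrophages.

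Timp4, the inhibitor with the narrowest tissue distribution of its family, was the member with the largest difference resting on many molecules. In endothelium it stood at 281 CPM (274 to 288) at P1, from 5723 UMIs in 758 of 1663 cells, and at 82.3 CPM (79.2 to 85.6) at P7, from 2572 UMIs in 1020 of 3330 cells. The P1 library was 3.41-fold higher, with a log2 ratio of -1.77 (-1.84 to -1.70). After each cell was thinned to 2000 UMIs, 27.7% of endothelial cells at P1 and 13.8% at P7 kept a Timp4 UMI. In lymphocytes, which served as a measure of free RNA (35 cells at P1 and 256 at P7, median 5247 and 5067 UMIs), the thinned share was 0% at P1 and 0.862% at P7. At P1, 3 of the 35 lymphocytes held lung genes, and Sftpc, a surfactant gene of lung epithelium, stood at 26688 CPM over the 35, with 4247 of its 6001 UMIs in 1 cell. Without those 3 cells the thinned Timp4 share was again 0%. The endothelial difference stayed past 2-fold under all 15 alternative settings tried, between -1.98 and -1.74.

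Within endothelium, Timp4 was highest in the Car4 and Aplnr sub-gates and lower in the others. Cells with at least 2 UMIs of Car4, a capillary carbonic anhydrase, held 636 CPM of Timp4 at P1 (665 cells) and 141 CPM at P7 (1083 cells), which gave a log2 ratio of -2.18 (-2.26 to -2.09). Cells with Aplnr, the apelin receptor of capillary and venous endothelium, held 421 CPM at P1 (710 cells) and 104 CPM at P7 (2041 cells), which gave a log2 ratio of -2.02 (-2.10 to -1.95). Levels were far lower in endocardial cells marked by Npr3, at 20.8 and 6.54 CPM, in arterial cells marked by Gja5, at 17.3 and 12.4 CPM, and in lymphatic cells marked by Prox1, at 31.7 and 32.5 CPM. The Car4 cells were 40.0% of the endothelial class at P1 and 32.5% at P7, and the Aplnr cells were 42.7% and 61.3%. The lower level at P7 was therefore present within both sub-gates that carried most of the Timp4 RNA, and the Prox1 intervals of 16.4 to 55.3 and 16.8 to 56.7 CPM overlapped nearly in full. The sub-gates overlap each other, and capillary and venous cells were not told apart among the Aplnr cells.

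**Figure D3:**
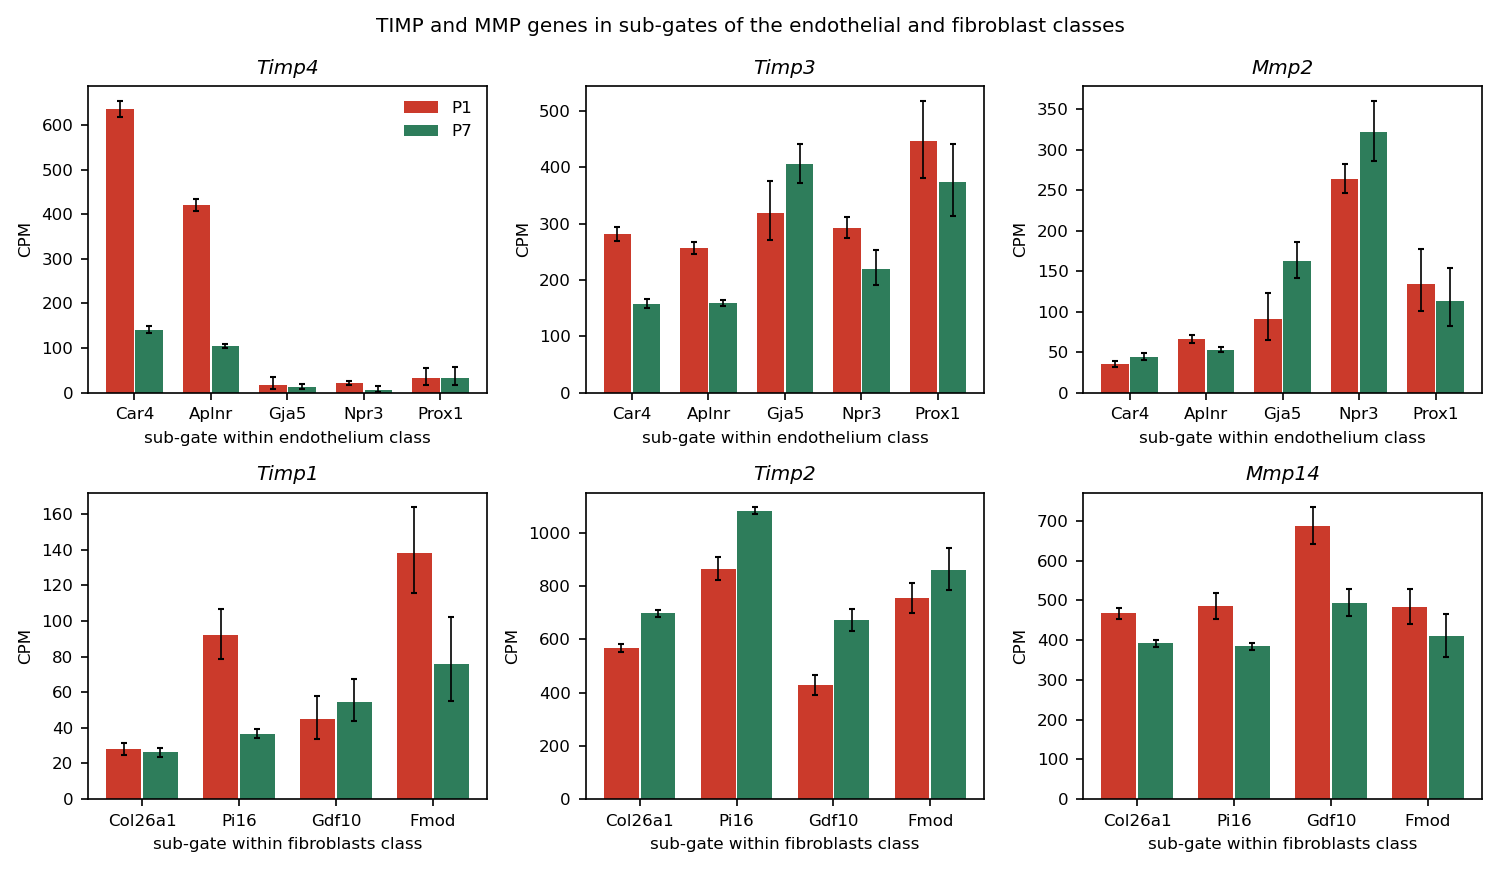
Bars give CPM within sub-gates of the endothelial class (top, Timp4, Timp3 and Mmp2) and of the fibroblast class (bottom, Timp1, Timp2 and Mmp14) at P1 (red) and P7 (green), with 95% Poisson intervals. Timp4 stands at 636 CPM in the P1 Car4 bar and 141 CPM in the P7 one, while Mmp2 was highest in the Npr3 cells at both ages.

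Outside endothelium, Timp4 rested on few cells. Smooth muscle held 139 CPM at P1 (302 UMIs in 32 of 163 cells) and 3.95 CPM at P7 (20 UMIs in 16 of 433 cells), which gave a log2 ratio of -5.10 (-5.87 to -4.49). At P1, 12 cells with at least 5 Timp4 UMIs, a limit chosen after the values were seen, held 256 of the 302 UMIs, and no P7 cell reached that number. In those 12 cells Eln, the elastin gene, stood at 18094 CPM, against 7698 CPM in the remaining P1 smooth muscle cells, and Myh11 stood at 702 against 1517 CPM. Of the 12 cells, 4 held a UMI of Hoxa5, Foxf1 or Tbx4. Of all 163 cells of the class at P1, 22 held such a UMI or at least 2 of Sftpc. The 12 cells together held 11 UMIs of Cdh5, the endothelial gate gene. Of the 302 UMIs, 301 were in the 84 cells with at least 10 UMIs of Col1a1, Col1a2 and Dcn. Without such cells at both ages, Timp4 was at 1.08 CPM at P1 and 4.34 CPM at P7. This gave a log2 ratio of 1.47 from very few UMIs. Fibroblasts themselves held 3.34 CPM of Timp4 at P1. The source of the Timp4 RNA in the 84 smooth muscle cells was not tested. Eln itself differed in the class as a whole, at 8476 CPM at P1 and 1512 CPM at P7. The part of Eln-rich cells in the Timp4 difference was not tested. In pericytes Timp4 stood at 11.7 CPM at P1 (32 UMIs in 11 cells) and 2.82 CPM at P7 (10 UMIs in 9 cells). Under a gate of at least 1 Kcnj8 UMI and no other gate gene, the pericyte ratio turned to 0.67 (-1.26 to 3.35). Fibroblasts were the exception in direction, at 3.34 CPM at P1 and 5.66 CPM at P7, with a log2 ratio of 0.75 that became -0.94 when any cell with a Pdgfra UMI was counted. The Col26a1 sub-gate held 146 of the 202 UMIs at P7, and Timp4 stood there at 2.23 and 9.40 CPM. At P7, 5 cells held 32.2% of the fibroblast UMIs. No Timp4 UMI was found in epicardium, which allows up to 3.99 CPM at P1 and 6.43 CPM at P7.

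The RNA of the host gene Syn2 was scarcer than that of Timp4, and at P1 it also lay mostly in endothelium, with 204 of 227 UMIs. Endothelial Syn2 stood at 10.0 and 8.26 CPM. Its log2 ratio of -0.28 (-0.55 to -0.01) was small beside that of Timp4 (-1.77). Fibroblast Syn2 stood at 0.461 and 4.51 CPM, from 8 and 161 UMIs. The fibroblast Timp4 ratio was also towards P7, but it changed sign under another gate, as given above.

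Timp1, the inducible inhibitor of the family, was lower at P7 in each of the 5 classes with enough UMIs. Epicardium held the highest level, at 140 CPM (114 to 169) at P1 and 122 CPM (92.5 to 158) at P7, and these intervals overlapped. Fibroblasts followed at 44.9 and 31.9 CPM and pericytes at 40.8 and 29.6 CPM, and these neighbouring classes did not differ beyond counting error at either age. Of the pericyte UMIs, 99 of 112 and 90 of 105 were in cells with fibroblast RNA, and in the remaining pericytes Timp1 stood at 16.4 and 8.62 CPM. Smooth muscle stood at 25.8 and 9.28 CPM and endothelium at 20.8 and 8.71 CPM, and this pair could not be separated at either age. The log2 ratios were -1.26 (-1.48 to -1.03) in endothelium, from 424 and 272 UMIs, and -1.47 (-2.07 to -0.89) in smooth muscle, from 56 and 47 UMIs. After thinning, the smooth muscle ratio was 0.01 (-1.84 to 2.68), and without cells with fibroblast RNA the levels there were 11.9 and 8.67 CPM. In macrophages 4 and 7 UMIs were counted, too few for a ratio.

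Among fibroblasts, Timp1 was unevenly spread, with the highest level at both ages in cells marked by Fmod, a proteoglycan gene of tendon and valve tissue, at 138 CPM (116 to 164) in 55 cells at P1 and 75.9 CPM (54.9 to 102) in 25 cells at P7. Cells marked by Pi16, a gene of adventitial fibroblasts, held 91.9 CPM at P1 and 36.5 CPM at P7, which gave a log2 ratio of -1.33 (-1.57 to -1.08). Cells marked by Col26a1 were near level, at 27.8 and 26.3 CPM, and cells marked by Gdf10 stood at 44.7 and 54.5 CPM with overlapping intervals. The Pi16 cells were 8.48% of the fibroblast class at P1 and 57.8% at P7. The Pi16 gate therefore held a much larger part of the class at P7, and the Timp1 difference within it and this shift cannot be told apart. Of 15 stress and immediate early genes that tissue digestion can induce, 0 were past 2-fold in fibroblasts in either direction. Of all genes, 4.55% passed towards P7 and 6.38% towards P1, so a count of 0 among 15 says little. Their median log2 ratio was -0.21, from -0.80 for Zfp36 to 0.93 for Dusp1. The part of digestion time in the Timp1 levels was not tested.

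Timp2 was found in every class and was higher at P7 in fibroblasts and macrophages, by less in macrophages without cells with fibroblast RNA. It was also higher at P7 in endothelium, but near level there without cells with fibroblast RNA. Epicardium was highest, at 1641 CPM (1550 to 1735) at P1 and 1177 CPM (1080 to 1279) at P7, and all 50 and all 31 epicardial cells held a UMI. Fibroblasts stood at 609 CPM (597 to 620) at P1 and 875 CPM (866 to 885) at P7, from 10570 and 31245 UMIs, which gave a log2 ratio of 0.52 (0.49 to 0.56) that ranged from 0.46 to 0.57 over the 15 alternatives. All 4 fibroblast sub-gates were higher at P7, with Pi16 cells at 866 and 1083 CPM, Fmod cells at 754 and 862 CPM, Col26a1 cells at 566 and 699 CPM, and Gdf10 cells at 427 and 673 CPM. Smooth muscle, at 269 and 273 CPM, and pericytes, at 256 and 246 CPM, differed between ages by less than counting error, and so did the 2 classes from each other at P1. At P7 the intervals of the 2 classes, 258 to 287 and 230 to 263 CPM, overlapped at their ends. Without cells with fibroblast RNA, Timp2 stood at 178 and 198 CPM in smooth muscle and at 79.4 and 95.4 CPM in pericytes. Endothelium was lowest of the 6 classes, at 127 and 156 CPM. Of its Timp2 UMIs, 857 of 2593 at P1 and 2030 of 4881 at P7 were in cells with fibroblast RNA. Without those cells endothelial Timp2 stood at 99.6 and 103 CPM. Without the highest doublet scores its log2 ratio was -0.04.

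Timp2 UMIs were also found in macrophages and neutrophils. Macrophages stood at 174 CPM at P1 and 278 CPM at P7. Of these Timp2 UMIs, 23 of 438 and 220 of 724 were in macrophages with fibroblast RNA. Without such cells the levels were 171 and 222 CPM. When any cell with a Csf1r UMI was counted, the macrophage log2 ratio was 0.06. A Timp2 UMI was found in 63.4% and 66.5% of gated macrophages, and in 29.4% and 32.9% after thinning, against 11.4% and 11.6% of thinned lymphocytes. Neutrophils held 266 CPM (224 to 315) at P1 and 194 CPM (127 to 285) at P7, with a UMI in 52.0% and 38.5% of thinned cells, although their median depth was only 3035 and 2350 UMIs. The thinned Timp2 shares of both myeloid groups were higher than those of lymphocytes, of which there were only 35 at P1. The part of free RNA in the myeloid shares was not tested. For Mmp2 and Mmp14 the macrophage share at P1 was near that of lymphocytes. In that library, 6.93% of macrophages and 8.57% of lymphocytes held an Mmp2 UMI, and 15.3% and 14.3% held an Mmp14 UMI. Without the 3 lymphocytes with lung genes, the lymphocyte shares were 6.25% for Mmp2, 9.375% for Mmp14 and 18.75% for Timp2.

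Timp3, the matrix-bound inhibitor, was lower at P7 in endothelium and higher at P7 in epicardium. Endothelium stood at 309 CPM (301 to 316) at P1 and 187 CPM (182 to 192) at P7, which gave a log2 ratio of -0.72 (-0.77 to -0.67). The Car4 cells, at 281 and 158 CPM, and the Aplnr cells, at 257 and 159 CPM, were both lower at P7, whereas the arterial Gja5 cells were higher, at 320 CPM (270 to 375, 35 cells) and 406 CPM (372 to 442, 123 cells). Pericytes were lower at P7, at 318 and 245 CPM. Fibroblasts, at 198 and 233 CPM, and smooth muscle, at 181 and 204 CPM, were slightly higher. The Fmod fibroblasts stood apart again, at 314 CPM (280 to 352) at P1 and 583 CPM (521 to 649) at P7, while Gdf10 fibroblasts were at 243 and 165 CPM. Epicardium stood at 197 CPM (167 to 232) at P1 and 401 CPM (345 to 463) at P7, which gave a log2 ratio of 1.02 (0.71 to 1.35) from 148 and 187 UMIs in 50 and 31 cells. This ratio was 1.31 without the cells with lung genes and 0.05 under a gate of at least 1 Upk3b UMI and no other gate gene. At P1 the order of pericytes and endothelium, and that of fibroblasts, epicardium and smooth muscle, could not be told within counting error. Its host gene Syn3 stayed at or under 6.92 CPM in every class at both ages.

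**Figure D4:**
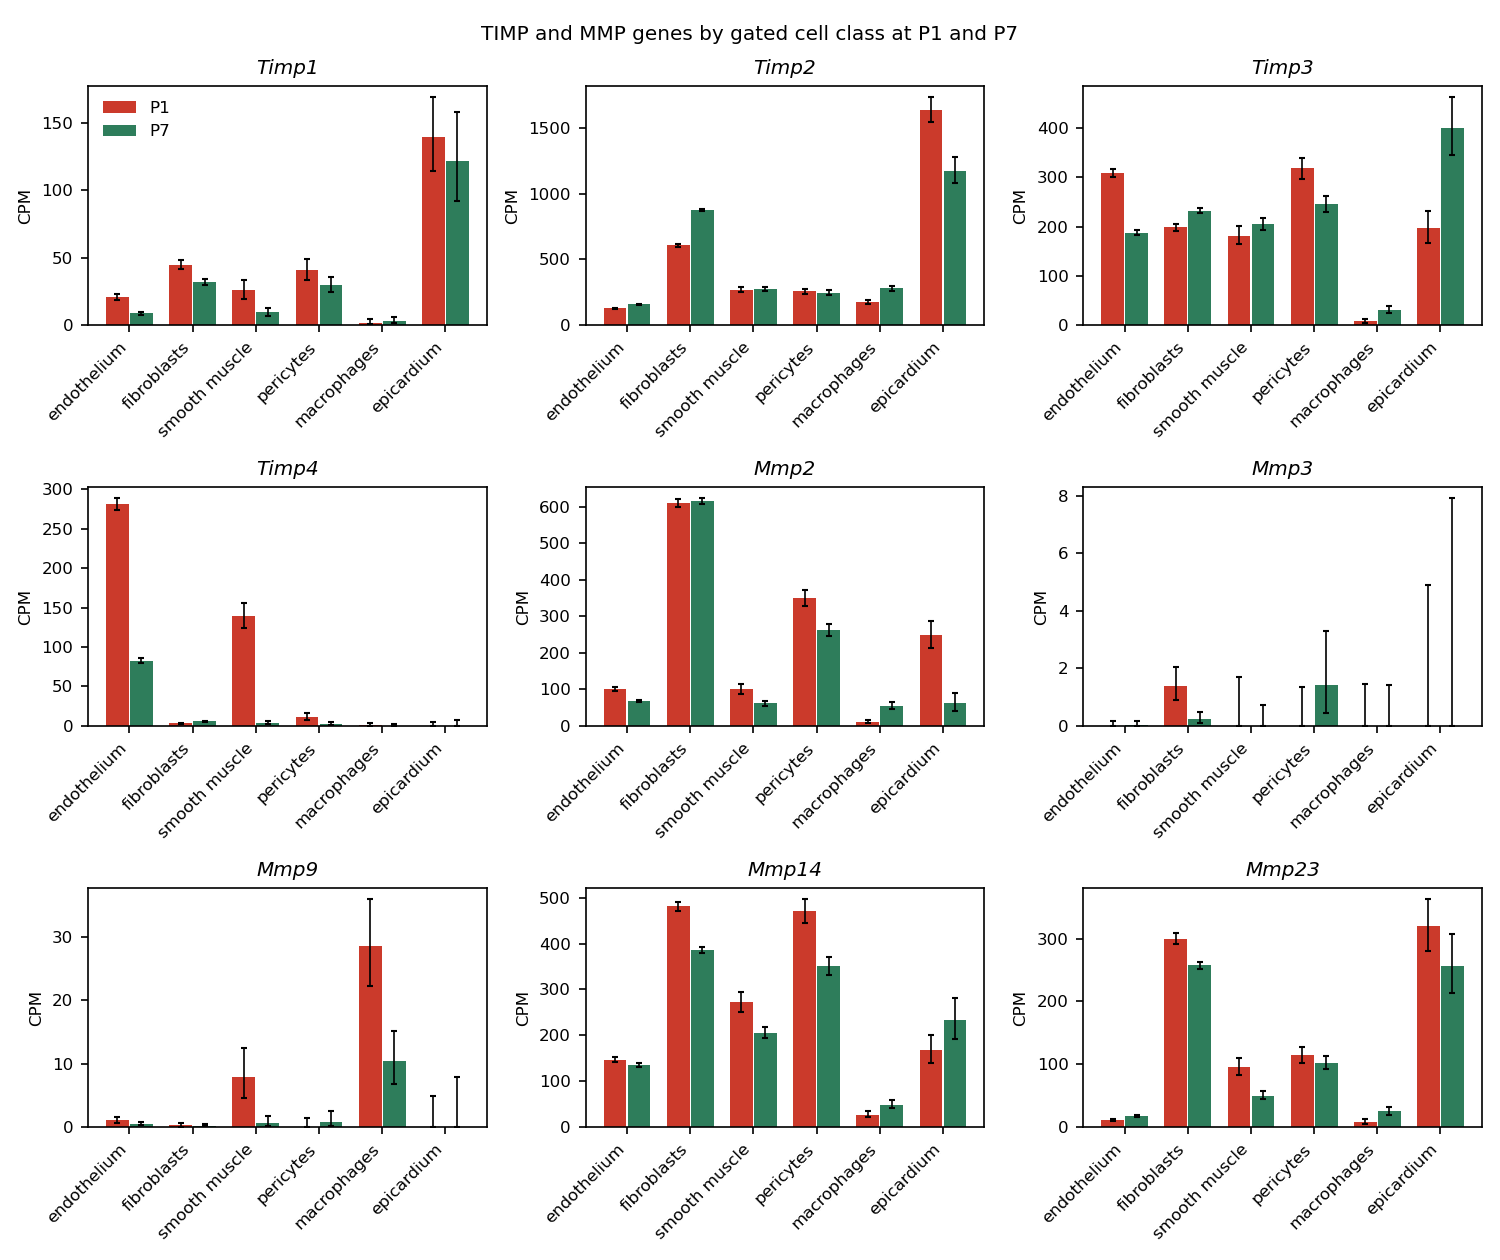
Bars give CPM of each of the 9 genes in the 6 gated classes at P1 (red) and P7 (green), with exact 95% Poisson intervals and a separate vertical scale for each gene. Timp4 stands out in endothelium and in P1 smooth muscle, Mmp2 in fibroblasts, and Mmp9 in macrophages, while Mmp3 rests on a few UMIs.

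Mmp2, the gelatinase of stromal cells, was a fibroblast gene whose level there did not differ between ages beyond counting error. Fibroblasts stood at 611 CPM (599 to 622) at P1 and 615 CPM (607 to 623) at P7, from 10604 and 21951 UMIs, with a UMI in 97.4% and 99.2% of cells. The log2 ratio was 0.01 (-0.02 to 0.04), and over the 15 alternatives it lay between -0.06 and 0.04. Pericytes were second, at 349 and 263 CPM, but 811 of their 959 UMIs at P1 and 681 of 933 at P7 were in cells with at least 10 UMIs of the 3 fibroblast genes. In the remaining pericytes Mmp2 stood at 187 and 145 CPM. In endothelium, Mmp2 stood at 101 and 68.3 CPM, and 939 of 2063 UMIs at P1 and 1447 of 2133 at P7 were in the 159 and 178 endothelial cells with fibroblast RNA. Without those cells Mmp2 stood at 64.5 and 24.8 CPM, which gave a log2 ratio of -1.38, past 2-fold. The sub-gate levels that follow include those cells. Endocardial cells marked by Npr3 held the most within endothelium, at 264 CPM (247 to 282) at P1 and 322 CPM (286 to 361) at P7, against 35.2 and 44.1 CPM in Car4 cells. Gja5 cells were also higher at P7, at 90.7 and 163 CPM, and Aplnr cells were lower, at 65.8 and 52.9 CPM. Prox1 cells, at 135 and 114 CPM, had overlapping intervals. The Npr3 cells were 13.6% of the endothelial class at P1 and 2.07% at P7. The part of this share in the lower class level at P7 was not tested. Smooth muscle stood at 101 and 61.6 CPM, of which 206 of 219 and 260 of 312 UMIs were in cells with fibroblast RNA.

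In epicardium Mmp2 stood at 249 CPM (215 to 287) at P1, in 32 of 50 cells, and 62.2 CPM (41.6 to 89.3) at P7, in 9 of 31 cells. The log2 ratio was -1.98 (-2.62 to -1.43). It was past 2-fold in 14 of 15 alternatives and -0.72 where any cell with a Upk3b UMI was counted. Without the cells with lung genes it was -1.33 (-2.34 to -0.45). At P7, 25 of the 29 UMIs were in 5 cells. The fibroblast marker list was high in epicardium at both ages, summing to 14152 and 11476 CPM, and its part in the Mmp2 level was not tested.

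Mmp14, which activates the MMP2 precursor at the cell surface, was highest in the fibroblast and pericyte classes. Fibroblasts stood at 481 CPM (471 to 492) at P1 and 385 CPM (379 to 391.7) at P7, and pericytes at 470 CPM (445 to 497) and 351 CPM (332 to 371). The 2 classes could not be separated at P1 and differed by 1.10-fold at P7. Of the pericyte Mmp14 UMIs, 1034 of 1291 and 724 of 1247 were in cells with fibroblast RNA, and the remaining pericytes stood at 324 and 301 CPM. Smooth muscle, at 273 and 206 CPM, and endothelium, at 147 and 135 CPM, were also lower at P7, while epicardium was higher, at 168 and 234 CPM. The epicardial log2 ratio of 0.48 became -0.19 after thinning. Macrophages were higher at P7 too, at 26.6 and 48.8 CPM, with a log2 ratio of 0.87 (0.44 to 1.33). Under a gate of at least 1 Csf1r UMI and no other gate gene, the macrophage ratio was -0.84. Cells with fibroblast RNA held 13 of 67 macrophage UMIs at P1 and 83 of 127 at P7. No class reached 2-fold in either direction. Within fibroblasts the Gdf10 cells were highest, at 688 CPM (643 to 735) at P1 and 494 CPM (460 to 530) at P7, and the other sub-gates lay between 467 and 486 CPM at P1 and between 384 and 410 CPM at P7. Within endothelium the Npr3 cells were highest, at 248 and 341 CPM, which is the sub-gate where Mmp2 was also highest. Mmp14 was thus higher at P7 in Npr3 cells, and also in Car4 cells, at 76.8 and 94.5 CPM. Aplnr cells were near level, at 118 and 120 CPM. Gja5 cells, at 199 and 167 CPM, and Prox1 cells, at 230 and 246 CPM, had overlapping intervals. The part of the smaller Npr3 share at P7 in the lower endothelial level was not tested.

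Cells with a UMI of all 3 genes of the MMP2 activation complex (Timp2, Mmp14 and Mmp2) were counted after thinning to 2000 UMIs. They were 24.7% of fibroblasts (22.0% to 27.5%) at P1 and 26.6% (24.7% to 28.6%) at P7, and these intervals overlapped. Without thinning the shares were 94.2% and 96.4%. The thinned shares were 9.42% and 4.63% in pericytes, 1.55% and 1.06% in endothelium, and 10.0% and 6.45% in epicardium.

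Mmp23 was a gene of fibroblasts and epicardium. Epicardium stood at 320 CPM (280 to 363) at P1 and 257 CPM (213 to 308) at P7, and fibroblasts at 300 CPM (292 to 309) and 258 CPM (252 to 263), so the 2 classes could not be ordered at either age. Pericytes, at 115 and 102 CPM, and smooth muscle, at 95.8 and 49.98 CPM, came next. Without cells with fibroblast RNA, which held 303 of 315 and 338 of 362 pericyte UMIs, Mmp23 stood at 15.1 and 13.8 CPM in pericytes and at 20.6 and 13.0 CPM in smooth muscle. Endothelium was low, at 10.6 and 17.1 CPM, and a UMI was found in 4.99% and 5.62% of its cells, against 5.71% and 5.08% of lymphocytes. After thinning the shares were 1.06% and 1.66% in endothelium and 0% and 1.29% in lymphocytes. Of the endothelial Mmp23 UMIs, 176 of 216 at P1 and 451 of 535 at P7 were in cells with fibroblast RNA.

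The higher levels of Timp3, Mmp2 and Mmp23 in macrophages at P7 moved together with fibroblast RNA. Timp3 stood at 7.54 and 30.4 CPM, Mmp2 at 11.9 and 55.7 CPM, and Mmp23 at 7.94 and 24.98 CPM. At P7, 15 of 215 macrophages held at least 10 UMIs of Col1a1, Col1a2 and Dcn, and these cells carried 53 of 79 Timp3 UMIs, 129 of 145 Mmp2 UMIs and 58 of 65 Mmp23 UMIs. Without such cells at both ages, the levels at P1 and P7 were 7.81 and 11.5 CPM for Timp3, 4.52 and 7.05 CPM for Mmp2, and 3.70 and 3.09 CPM for Mmp23. The 15 cells had a median of 21075 UMIs, against 10435 for the class. Under a gate of at least 1 Csf1r UMI and no other gate gene, the log2 ratios were -0.06, -0.84 and -0.28. The fibroblast list summed to 346 CPM in P1 macrophages and 2523 CPM in P7 macrophages, with all 6 markers detected at both ages.

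Mmp9, the gelatinase stored in neutrophil granules, was carried by cells rich in S100a8 and S100a9, the calprotectin genes of neutrophils. Cells with at least 10 UMIs of these genes, inside or outside the classes, held 812 of 844 Mmp9 UMIs at P1 (96.2%) and 285 of 309 at P7 (92.2%). Within them Mmp9 stood at 583 CPM (544 to 625) at P1 and 607 CPM (538 to 681) at P7, which overlapped. In the narrower neutrophil gate, without any gate gene, it stood at 978 CPM (894 to 1067) and 1263 CPM (1079 to 1468), a difference of 0.37 (0.11 to 0.62) in log2 terms. The cells with at least 10 UMIs were 225 of 4991 (4.51%) at P1 and 85 of 8511 (0.999%) at P7. Over all cells Mmp9 was 4.50-fold higher at P1, where the share of these cells was also higher. The part of this share in the Mmp9 difference was not tested. In all other cells Mmp9 stood at 0.555 and 0.248 CPM, with a log2 ratio of -1.16 from 32 and 24 UMIs. Of the macrophage class, 58 of 72 Mmp9 UMIs at P1 and 27 of 27 at P7 were in cells with at least 10 UMIs of S100a8 and S100a9. Those cells met the Csf1r gate, and whether they were neutrophils was not tested. No Mmp9 UMI was found in the 35 and 256 lymphocytes that lay outside the neutrophil gate. In smooth muscle the 17 P1 UMIs were in 3 cells and the 3 P7 UMIs in 3 cells, and in endothelium 21 and 14 UMIs were in 12 and 6 cells. Red cell lysis and a live cell sort preceded both libraries.

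Mmp3, which cleaves proteoglycans and activates other metalloproteinases, was close to the limit of detection. It gave 35 UMIs in 10 cells at P1 and 21 UMIs in 14 cells at P7. Fibroblasts held 24 of the UMIs at P1, in 6 of 1002 cells, and 9 at P7, in 6 of 2010 cells. The log2 ratio of -2.41 (-3.74 to -1.30) rests on these few cells, and 1 P1 cell alone held 15 UMIs. At P1, 23 of the 24 fibroblast UMIs were in the Fmod cells, at 24.1 CPM (15.3 to 36.1), and 2 of 9 were there at P7. None was found in P1 endothelium, which allows up to 0.147 CPM.

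Summed over the members in the classes as gated, the balance of inhibitor to enzyme transcripts differed between classes more than between ages. TIMPs made up 74.0% of the member UMIs in endothelium at P1 and 66.3% at P7, 72.9% and 75.5% in epicardium, and 71.1% and 69.0% in macrophages. They made up 56.3% and 60.7% in smooth muscle and 40.2% and 42.2% in pericytes. In fibroblasts the share was 38.0% (37.5% to 38.5%) at P1 and 47.7% (47.3% to 48.0%) at P7. In endothelium Timp2 was 17.3% of TIMP UMIs at P1 and 36.0% at P7, since Timp4 and Timp3 were lower and Timp2 was higher in the class as gated. All these shares include the cells with fibroblast RNA and were not recomputed without them. In P7 macrophages such cells held 129 of 145 Mmp2 UMIs but 220 of 724 Timp2 UMIs. The shares count transcripts of genes that differ in length and capture, and say nothing of protein or activity.

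The genes with the most similar profiles were sought by the Pearson correlation of log2(CPM + 1) over the 12 class and library values, among 12539 genes with at least 200 UMIs. With 12 points from 2 libraries and many genes, high values are common, so these are descriptions. Mmp9 was closest to Mmp8 (r = 0.98), the neutrophil collagenase, Olfm4 (0.98) and Wfdc21 (0.96). Mmp2 was closest to Robo1 (0.96), Fndc10 (0.95) and Olfml3 (0.95), and Mmp23 to Arhgef19 (0.98), Thbs2 (0.98) and Col16a1 (0.98). Mmp14 was closest to Morf4l1, Sgcb and Rcn2, each at 0.98 or 0.99. Timp1 was closest to Abat (0.98), Slc2a13 (0.98) and Arxes2 (0.97), Timp2 to Mst1r (0.96), B4galt1 (0.95) and Naprt (0.95), and Timp3 to Yap1 (0.98), Armcx1 (0.97) and Gabbr1 (0.97). Timp4 reached 0.93 with Rprml, 0.92 with Slc35f1 and 0.91 with Smoc1. Mmp3, with 39 UMIs in these sums, reached 0.88 with Foxd1, 0.80 with Grik2 and 0.79 with Stam.

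Related proteases and their regulators, listed by family, were set beside the members. Over all cells, 4.07% of all genes were at least 2-fold higher at P7 and 8.88% at P1. Of 16 other metalloproteinase genes, 10 had enough UMIs over all cells, 0 were at least 2-fold higher at P7 and 3 at P1 (Mmp8, Mmp12 and Mmp13). Of 18 ADAM and ADAMTS genes, all measured, 2 were higher at P7 (Adamts5 and Adamts15) and 2 at P1 (Adam8 and Adamts20). Of 14 activators and inhibitors, 13 were measured, with 2 past 2-fold towards P7 and 2 towards P1 (A2m and Spock2). Of 5 cathepsins, 0 were higher at P7 and 1, Ctss, at P1. Of the host genes, Syn1 was past 2-fold towards P7, from 9 and 33 UMIs. Mmp8 stood at 15.9 CPM at P1 and 2.09 CPM at P7. Mmp12, the macrophage elastase, had 91 UMIs in 8 of 202 macrophages at P1 and 0 in 215 at P7, which is at least 31.3-fold higher at P1 against the limit of 3 counts over the class, but 80 of the 91 UMIs were in 5 cells. The 15 stress and immediate early genes that served as a measure of digestion had 0 past 2-fold over all cells in either direction, with a median log2 ratio of -0.23. Within classes, Dusp1 (1.14) and Fosb (-1.24) were past 2-fold in smooth muscle, Hspa1b (1.08), Ier3 (-1.78) and Socs3 (-1.50) in pericytes and Hspa1a (-1.33) in macrophages, by the log2 ratio of P7 over P1, and their part in the member differences there was not tested.

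Within classes, the genes of these lists with the largest ratios included inhibitors as well as enzymes. Of the 53 genes in the 4 families, 41 had enough UMIs in endothelium, 41 in fibroblasts and 33 in smooth muscle. In pericytes 32 had enough, in macrophages 27 and in epicardium 22. Past 2-fold towards P7 and P1 were, in turn, 2 and 3 in endothelium (4.67% and 5.23% of all genes) and 4 and 3 in fibroblasts (4.55% and 6.38%). Smooth muscle had 2 and 2 (3.21% and 4.35%) and pericytes 0 and 0 (2.75% and 3.17%). Macrophages had 10 and 4 (8.25% and 2.78%) and epicardium 1 and 2 (4.93% and 5.03%). In endothelium, Spock2, which encodes a matrix proteoglycan (testican 2), stood at 7.66 and 1.60 CPM at P1 and P7, and A2m, encoding the broad protease inhibitor alpha-2-macroglobulin, at 9.62 and 2.56 CPM. Mmp11, encoding stromelysin 3, was higher at P7, at 3.39 and 10.0 CPM. In fibroblasts, Spock2 stood at 5.64 and 0.672 CPM and Adamts9 at 19.5 and 8.01 CPM. In smooth muscle, Mmp15 stood at 5.53 and 12.2 CPM, Mmp16 at 15.2 and 6.52 CPM, and Serpinf1 at 19.3 and 10.5 CPM. In pericytes, Ctss stood at 13.1 and 7.04 CPM and Tfpi2 at 9.84 and 14.4 CPM. In epicardium, Adam15 stood at 71.9 and 21.4 CPM, Adamtsl1 at 73.2 and 36.4 CPM, and Adamts1 at 73.2 and 38.6 CPM. In macrophages, Adamts5 stood at 2.38 and 33.1 CPM and Adamts2 at 3.17 and 33.4 CPM, with 66 of 86 and 51 of 87 of the P7 UMIs in 5 cells each, beside the fibroblast RNA described above for that class.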

How the data were processed

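Hearts at P1 and P7 were profiled in 1 library per age. The authors aligned the reads to mm10 (GRCm38) with Cell Ranger 3.1.0, per the labels, and deposited raw UMI counts per gene and barcode, without normalisation and before cell filters. The deposited gene and barcode lists carry names and no measurement. Columns of per-sample values left unused numbered 0. Cells with 200 to 8000 genes and at most 20% mitochondrial UMIs were kept and gated as described. No doublet caller was applied, and an alternative removed the 6% of each library that scored highest in a doublet simulation (scanpy 1.11.5). UMIs were summed per class to CPM with exact Poisson intervals. The log2 ratio used 0.5 added counts and an exact conditional binomial interval. Shares carry exact Clopper-Pearson intervals. A gene counted as past the limit at 2-fold with at least 20 summed UMIs. Floors for 0 counts used 3 counts. Intervals and floors cover counting error only. Scripts were tested on simulated data.

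Genes named are the 9 members, the 3 largest ratios per class among list genes with at least 50 UMIs, and the 3 genes most correlated with each member. Genes past the limit in the lists over all cells, the host genes, the gate and sex genes and the markers of other cells were named besides. Some genes that this rule selects are not reported here. The members and lists were chosen with earlier results of these data known. Lymphocytes that also met the neutrophil gate (48 at P1, 14 at P7) were left out of the free RNA measure. Alternatives varied the gates, mitochondrial limit, doublets, depth, scaling, added counts, minimum of UMIs and lung-like cells. Leaving out cells with fibroblast RNA or with S100a8 and S100a9 was added after seeing the data, as was leaving out lymphocytes with lung genes. Python 3.11.15, numpy 2.4.6, scipy 1.17.1 and pandas 2.3.3 were used.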

Additional observations from a re-analysis of the deposited data

Results flagged for a closer look

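Mmp2 differed in direction between macrophages, where the log2 ratio of P7 over P1 was 2.21, and epicardium, where it was -1.98. The difference between the classes was not tested. The 30 and 145 macrophage UMIs and the 187 and 29 epicardial UMIs behind these ratios are given above, with the 15 macrophages that held most of the P7 molecules.

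Barcodes of the P1 library with fewer than 200 genes entered no comparison. There were 2253 of them, with 366851 UMIs that were not mitochondrial, and they held members of the family above the limit that a count of 0 allows. These were 101 UMIs of Timp2, 83 of Timp3, 83 of Mmp2, 50 of Mmp14, 34 of Mmp23, 32 of Timp4 and 15 of Timp1. Scaled to 1e6 UMIs that were not mitochondrial, Timp4 stood at 87.2 CPM in them (59.7 to 123) and Mmp9 at 2.73 CPM, from 1 UMI. The P7 library had 160 such barcodes, with 10 Timp2 UMIs and 1 Timp4 UMI.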

How the results depend on the processing

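The 52 log2 ratios with enough UMIs were recomputed under 15 alternatives, of which 2 were added after seeing the data. Of these 780 values, 630 stayed within the spread allowed, 142 moved and 8 turned the sign of a ratio past 2-fold. Counting ratios that were not past 2-fold as well, the sign turned in 38 of the 780 values. Of the 17 ratios past 2-fold, 4 stayed past it under all 15 alternatives, which were Timp4 in endothelium and Timp4, Mmp3 and Mmp9 over all cells. For Mmp3, 1 P1 cell held 15 of the 35 UMIs (42.9%), and no alternative was set to leave out single cells. Its ratio over all cells therefore still rests on that cell. The 4 pairs past 2-fold towards P7 became 0 under a gate of at least 1 UMI and no other gate gene and 0 when any UMI of a gate gene was enough. They became 1 without the highest doublet scores, 1 after thinning, 1 with the mean of per-cell CPM and 1 without cells with fibroblast RNA. The 10 pairs towards P1 became 6 after thinning and 6 with a minimum of 50 summed UMIs. Among ratios past 2-fold, the sign turned for Timp1 in smooth muscle after thinning (0.014), for Timp4 in smooth muscle without cells with fibroblast RNA (1.47), and under the gate of at least 1 UMI for Timp4 in pericytes (0.67) and for Timp3 (-0.056), Mmp2 (-0.84) and Mmp23 (-0.28) in macrophages. Mmp23 in macrophages also turned without the highest doublet scores (-0.18) and without cells with fibroblast RNA (-0.24). Where fewer cells remained, the counts are smaller, and otherwise the cause was not tested. Median-ratio scaling moved the epicardial ratios by 0.10 and those of every other class by less. The class with the highest level changed under at least 1 alternative for Mmp23 and Timp3 at both ages, for Mmp9 at both ages, and for Mmp14 at P1. The gate of at least 3 UMIs and thinning left Mmp3 at P1 with fewer than 20 UMIs over the classes, so its classes were not ranked there. Epicardium, with 50 and 31 cells, and Mmp3, with 35 and 21 UMIs, are limited most by depth. No paired analysis was possible because each age had 1 library.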
